A study of Mus musculus with 18 samples.

Results

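The 50 genes described here encode ligands, receptors, signal transducers, regulators and targets of the TGF-beta and bone morphogenetic protein (BMP) pathways, chosen by name. A peak was assigned to a gene when it overlapped the gene's RefSeq span on mm10 (GRCm38.p6) or the 1000 bp on either side. All 50 matched 1 of 21887 protein-coding genes. A region listed in 1 arm only lay in 38 of them (76.0%), against 43.7% of all genes. Summed over libraries, the 50 genes held 205 of 55642 listed peaks.

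The peaks came from ATAC-seq, in which a transposase cuts open chromatin, on sorted lung epithelium of adult c57/bl6 mice aged 6 to 12 weeks. Cells lacked CD31 and CD45, carried Epcam and Sca-1, and were divided by surface CD24 into CD24neg, CD24low and CD24high populations. Mice had received an inhibitor of the histone H3K9 methyltransferase G9a (G9ai), whose name, dose and duration the labels do not state, or vehicle, with 3 mice per arm and 10000 cells per library. Of the 18 samples in 6 groups, 10 had a peak list analysed here. Each population had lists for G9ai replicates 2 and 3. For vehicle there were 2 lists in CD24low (replicates 2 and 3), and replicate 3 stood alone in both CD24neg and CD24high.

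TGF-beta ligands are secreted in a latent form, tethered to the matrix by latent TGF-beta binding proteins, and are released there by integrins, proteases or thrombospondin. Active ligands join type II and type I receptor kinases, which phosphorylate Smad2 and Smad3 (TGF-beta and activins) or Smad1, Smad5 and Smad9 (BMPs), and these enter the nucleus with Smad4. Smad6, Smad7 and the Smurf ubiquitin ligases restrain the signal, Ski, Skil and Tgif1 repress transcription with the Smads, and the Id genes are BMP targets. In lung epithelium the pathway is known for growth arrest, differentiation and fibrosis.

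The start windows of 9 of the 35 genes with a start in the RefSeq promoter table lay under a one-arm region of any population or arm. That pooled share was not computed over all genes. The shares that follow, each of 1 population and arm, cannot be set against it. In CD24neg, Inhba, Ltbp1 and Bmpr1b had a G9ai-only region there, against 1.77% of 17492 genes with a start, and Tgfb1, Smad5 and Smad9 a vehicle-only one, against 2.34%. In CD24low, Ltbp1 had a G9ai-only region there, against 2.73% of those genes, and Bmpr1a, Acvr1 and Smad5 a vehicle-only one, against 1.69%. In CD24high, Ltbp1 and Tgfbr1 had a G9ai-only region there, against 1.35%, and Ltbp1 and Smad9 a vehicle-only one, against 3.36%. A one-arm region is defined with the counts below. The Ltbp1 and Smad9 starts are shown because regions on them were listed in 2 populations, on the same or on opposite sides. The Tgfbr1 start is shown for its high score in 1 library. The Smad5 start is shown because, of the starts under a vehicle-only region in CD24low, those of Smad5 were covered over the most bases. Each run is the 250 bases before an annotated start (RefSeq, GRCm38.p6), 5′ to 3′ on the strand of the gene. Capitals mark bases covered in every library with a listed peak in the start window.
Ltbp1 upstream start, plus strand, chr17:75005279-75005528, G9ai libraries of CD24neg and CD24high: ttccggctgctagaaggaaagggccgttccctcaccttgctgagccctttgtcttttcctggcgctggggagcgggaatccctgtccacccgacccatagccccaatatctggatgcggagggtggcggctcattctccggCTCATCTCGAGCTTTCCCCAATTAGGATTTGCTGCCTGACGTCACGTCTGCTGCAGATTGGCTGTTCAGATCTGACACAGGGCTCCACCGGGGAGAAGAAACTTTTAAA
Ltbp1 internal start, plus strand, chr17:75178531-75178780, CD24low G9ai libraries and the CD24high vehicle library: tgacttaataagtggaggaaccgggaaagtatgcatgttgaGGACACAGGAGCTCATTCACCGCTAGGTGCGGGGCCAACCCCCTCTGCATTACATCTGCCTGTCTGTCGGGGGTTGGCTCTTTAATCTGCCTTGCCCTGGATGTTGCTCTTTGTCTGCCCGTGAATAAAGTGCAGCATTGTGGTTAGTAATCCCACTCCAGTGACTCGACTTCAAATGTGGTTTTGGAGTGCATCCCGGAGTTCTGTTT
Smad9, plus strand, chr3:54755332-54755581, vehicle libraries of CD24neg and CD24high: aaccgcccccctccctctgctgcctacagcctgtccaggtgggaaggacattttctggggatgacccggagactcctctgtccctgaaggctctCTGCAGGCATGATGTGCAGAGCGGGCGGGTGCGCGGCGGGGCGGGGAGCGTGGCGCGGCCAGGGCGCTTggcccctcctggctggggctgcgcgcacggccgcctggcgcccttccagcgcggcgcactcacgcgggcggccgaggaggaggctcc
Smad5, plus strand, chr13:56702760-56703009, CD24low vehicle libraries: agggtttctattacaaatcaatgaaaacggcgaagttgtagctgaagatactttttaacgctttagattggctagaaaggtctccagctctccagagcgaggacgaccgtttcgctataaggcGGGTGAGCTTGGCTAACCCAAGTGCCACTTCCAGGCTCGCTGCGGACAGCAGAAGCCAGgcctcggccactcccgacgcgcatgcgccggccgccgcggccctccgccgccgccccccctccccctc
Tgfbr1, plus strand, chr4:47352972-47353221, CD24high G9ai replicate 3: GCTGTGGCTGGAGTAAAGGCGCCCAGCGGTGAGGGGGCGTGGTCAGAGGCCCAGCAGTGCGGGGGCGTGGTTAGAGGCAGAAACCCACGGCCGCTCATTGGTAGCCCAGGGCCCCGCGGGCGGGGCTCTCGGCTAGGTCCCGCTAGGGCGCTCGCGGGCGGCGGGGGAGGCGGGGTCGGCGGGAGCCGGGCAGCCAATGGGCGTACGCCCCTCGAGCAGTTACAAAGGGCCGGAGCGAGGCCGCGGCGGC
G and C made up 58.7% of the 300-base window of the upstream Ltbp1 start (250 bases before and 50 after it) and 50% of that of the internal one, against 73.7% for Smad9, 63.0% for Smad5 and 74.7% for Tgfbr1. The median was 67.5% over the 12 windows under a region, 64.3% over all 48 windows of the 50 genes and 56.3% over 21263 windows of all protein-coding genes. The CAGA box core bound by Smad3 and Smad4, searched as CAGAC on both strands, was in 4 of the 12 windows and in 48.4% of all windows. It was in 45.8% of the windows of the 50 genes. The GC-rich Smad element GGCGCC was in 5 of 12, in 29.2% of the windows of the 50 genes and in 15.3% of all. Windows of 1 gene can overlap, and the 5 belong to 4 of 9 genes, since 1 site lies in both early windows of Smad5. The palindromic element GTCTAGAC was in 0 of 12, in 2.08% of the windows of the 50 genes and in 0.226% of all. No motif contains another, and a match describes letters, not a bound site.

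Each list held 2552 to 12985 peaks, or 3.03% to 13.2% of the highest peak number in its names, so the lists are a selection of the called peaks. In groups with 2 libraries, 98.2% to 99.6% of peaks overlapped the other library, while 13 to 105 peaks per list overlapped the opposite arm. A gene without a listed peak may thus be open in both arms, and the spread between replicates understates the error between mice. Read depth is unknown, and the score of a peak is the authors' own, used here to rank peaks within a list. For 1 region, paired scores are those of replicates 2 and 3 of the arm; CD24neg and CD24high vehicle regions have 1 score each. A change in the mix of sorted cells and a change of accessibility per cell cannot be told apart.

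Marker genes differed between lists as well, and so did list length. The CD24low lists held 7379 and 7361 peaks with G9ai against 2558 and 2552 with vehicle. Those of CD24neg held 4173 and 4149 peaks with G9ai against 8870 with vehicle, and those of CD24high 2798 and 2817 against 12985. Club cell markers with a peak numbered 5 of 5 in both CD24low G9ai libraries and 0 of 5 in both CD24low vehicle libraries. Endothelial markers with a peak numbered 2 of 5 with G9ai in CD24low and 0 of 5 with vehicle. In CD24neg they numbered 0 of 5 with G9ai and 3 of 5 with vehicle, and alveolar type 2 markers likewise 0 of 5 with G9ai and 3 of 5 with vehicle. Leukocyte markers numbered 1 of 5 with G9ai and 0 of 5 with vehicle in CD24low, and 0 of 5 with G9ai and 2 of 5 with vehicle in CD24neg. In CD24high, multiciliated markers numbered 2 of 5 with G9ai and 4 of 5 with vehicle, while endothelial and mesenchymal markers numbered 0 of 5 with G9ai and 2 of 5 with vehicle each. Of the genes behind the sort, Epcam, Ly6a (Sca-1) and Cd24a, which define the cells kept, had no listed peak. Pecam1 (CD31), whose protein was selected against, held 4 peaks in each CD24low G9ai library and 1 in each of the vehicle libraries of CD24neg and CD24high. Ptprc (CD45), also selected against, held 1 peak, in the CD24neg vehicle library. The higher number was in the longer list in each of these comparisons of arms. Of all genes, 15.9% held a G9ai-only region in CD24low and 7.44% a vehicle-only one. Some other markers did not follow list length. Multiciliated markers numbered 2 of 5 in both arms of CD24neg, but were Mcidas and Rfx3 with G9ai and Foxj1 and Dnah5 with vehicle. Alveolar type 2 markers numbered 1 of 5 in both arms of CD24low, Abca3 with G9ai and Sftpc with vehicle. Pan-epithelial markers in CD24neg numbered 2 of 5 with G9ai and 1 of 5 with vehicle. Club markers in CD24neg numbered 1 of 5 with G9ai and 0 of 5 with vehicle. The part of these markers in the results was not tested.

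**Figure D1:**
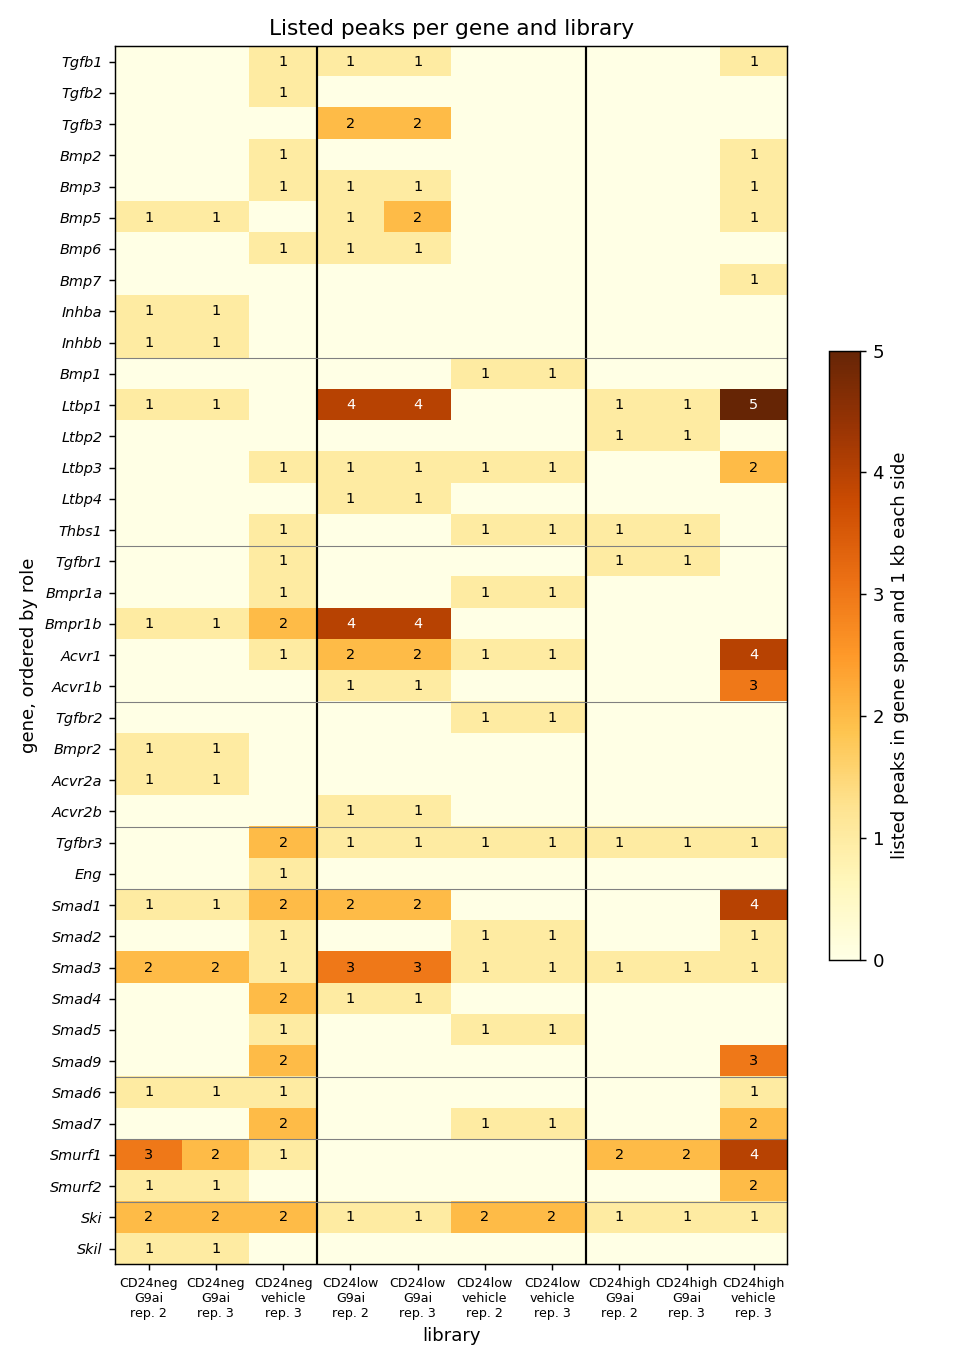
Listed peaks (colour and number) in each pathway gene with any peak (rows, by role) and each of the 10 libraries (columns, by population, G9ai left of vehicle). Replicates of a group carry nearly the same numbers, and the CD24high vehicle library holds 5 peaks in Ltbp1.

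A region is a merged set of peaks of 1 population, called G9ai-only when every G9ai library and no vehicle library of that population had a peak in it, and vehicle-only in the opposite case. In CD24neg, 13 of the 50 genes (26%) held a G9ai-only region, against 10.6% of all genes, and 23 (46.0%) a vehicle-only region, against 18.9%. In CD24low, 17 (34.0%) held a G9ai-only region, against 15.9% of all genes, and 12 (24.0%) a vehicle-only region, against 7.44%. In CD24high, 8 (16.0%) held a G9ai-only region, against 8.01% of all genes, and 19 (38.0%) a vehicle-only region, against 25.0%. Over the 3 populations, 27 genes held a G9ai-only region, against 25.4% of all genes, 30 a vehicle-only region, against 35.4%, and 38 (76.0%) either, against 43.7%. The pathway genes held 135 one-arm regions. Of those in each population, 34.8% were G9ai-only in CD24neg, 68.3% in CD24low and 18.8% in CD24high. Over all gene-linked regions these shares were 31.6%, 73.1% and 18.3%. These shares moved with the lengths of the lists, since the longer lists were those of vehicle in CD24neg and CD24high and of G9ai in CD24low. With the 2552 highest-scoring peaks of every list, the pathway genes held 8 G9ai-only and 7 vehicle-only regions in CD24neg, 6 G9ai-only and 13 vehicle-only in CD24low, and 7 G9ai-only and 8 vehicle-only in CD24high. The balance of arms was thus reversed in CD24low and nearly even in CD24neg and CD24high at equal list lengths. Genes of like length were also more often vehicle-only in CD24low at this setting. They gave an expected 2.62 genes with a G9ai-only and 5.09 with a vehicle-only region there, 3.69 and 5.05 in CD24neg, and 4.94 and 4.98 in CD24high. The cut kept nearly all of the CD24low vehicle lists and a smaller part of the G9ai lists.

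The pathway genes are long, with a median span of 43.4 kb against 17.2 kb for all genes, and long genes hold more peaks. The 38 genes with a one-arm region had a median span of 68.7 kb and the 12 without one 6.76 kb. Summing over the 50 genes the share of all genes in the same of 20 length bins that held such a region gave an expected number. In CD24neg it was 7.64 for G9ai-only regions (13 observed) and 13.3 for vehicle-only regions (23 observed). In CD24low it was 11.2 for G9ai-only regions (17 observed) and 5.09 for vehicle-only regions (12 observed). In CD24high it was 5.70 for G9ai-only regions (8 observed) and 17.5 for vehicle-only regions (19 observed). The observed number was above that of genes of like length in these 6 sets, by 2.36 times for CD24low vehicle-only regions and 1.09 times for CD24high vehicle-only regions. For a one-arm region of either arm in any population, the expected number was 28.3 (38 observed). These are descriptions without a test. The CD24low vehicle-only ratio was 1.21 among the higher-scoring 50% of peaks, and the CD24high vehicle-only ratio was 0.594 within 1000 bp of gene ends.

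**Figure D2:**
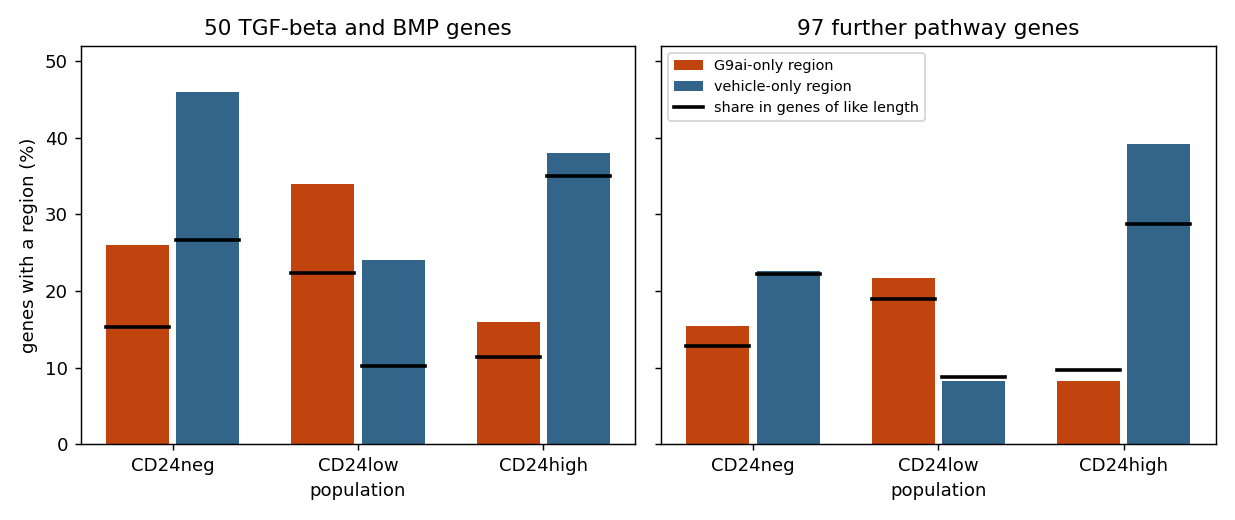
Percentage of genes with a G9ai-only (orange) or vehicle-only (blue) region in each population, for the 50 genes (left) and 97 further pathway genes (right), with black lines for genes of like length. The bars of the 50 genes stand above their lines in all 6 sets, and those of the further genes fall below the line for CD24low vehicle-only and CD24high G9ai-only regions.

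Of the 97 further pathway genes, 15 held a G9ai-only region in CD24neg (12.4 expected from length), 21 in CD24low (18.4 expected) and 8 in CD24high (9.35 expected). Vehicle-only regions lay in 22 in CD24neg (21.6 expected), 8 in CD24low (8.48 expected) and 38 in CD24high (27.9 expected). Nedd4l (333 kb), a ubiquitin ligase acting on Smads and receptors, held 22 one-arm regions, and Runx1 (225 kb), a nuclear partner of Smads, 19. Pdlim5 (156 kb) held 11, and Itgav (84.6 kb), an integrin chain that releases latent TGF-beta, 10. Rgmb (26.6 kb), a BMP co-receptor, held 9, and Crim1 (176 kb), which binds BMPs, 7. All of these spans exceed the median of 17.2 kb for all genes, and the single counts were not set against length.

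**Figure D3:**
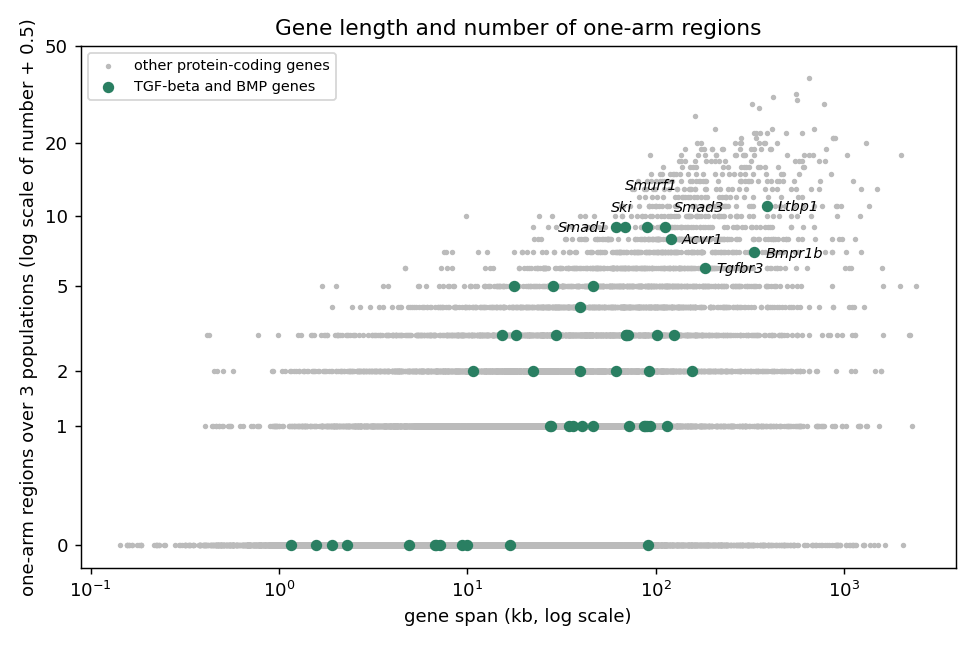
Gene span (x axis, kb, log scale) against one-arm regions summed over the 3 populations (y axis, number plus 0.5, log scale) for the 50 pathway genes (green) and other protein-coding genes (grey). Of the 12 pathway genes at 0, Acvr1c spans 90.4 kb and the others at most 16.8 kb, and Ltbp1, at 387 kb, holds 11 regions.

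The share of each list that fell in the 50 genes was compared over libraries. In CD24neg it was 0.431% and 0.410% in the G9ai libraries, against 0.338% in the vehicle library. In CD24low it was 0.379% and 0.394% with G9ai, against 0.508% and 0.509% with vehicle. In CD24high it was 0.322% and 0.319% with G9ai, against 0.300% with vehicle. The arms did not overlap in any population, and G9ai was lower in CD24low alone. This separation carries little weight, since replicates shared 98.2% to 99.6% of their peaks and CD24neg and CD24high had 1 vehicle library each. These shares rest on 9 to 39 peaks per library, and their 95% Wilson intervals, which cover counting error only, overlapped between arms, as in CD24low with 0.263% to 0.548% for G9ai replicate 2 and 0.297% to 0.868% for vehicle replicate 2.

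The difference of means, G9ai minus vehicle, was 0.0823 percentage points in CD24neg, -0.122 in CD24low and 0.0202 in CD24high, each with a two-sided p = 0.333 when libraries were permuted exactly between arms, which is the smallest p these designs allow, and 0.444 after Benjamini-Hochberg adjustment over the 4 comparisons of arms. Over the 3 populations it was -0.00652 points (exact permutation within populations, p = 0.926). The sign turned among the higher-scoring 50% of peaks in CD24low (0.0293 points), within 1000 bp of gene ends in CD24neg (-0.00456 points) and without the flank in CD24high (-0.00769 points). The share of peaks in any gene differed in the same directions, by 0.562 points in CD24neg, -3.62 in CD24low and 5.0 in CD24high. Within the G9ai arm the population means of the 50-gene share ranged over 0.100 points (exact permutation p = 0.0667, the smallest that 6 libraries allow).

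Among the 11 ligand genes, 9 held one-arm regions, with none vehicle-only in CD24low (1.03 genes expected from length) and none G9ai-only in CD24high (1.13 expected). Tgfb1, the ligand best known in fibrosis, had a vehicle-only region 186 bp upstream of its start in CD24neg (score 65), which also lay in the window of the neighbouring B9d2. In CD24low a G9ai-only region lay 2045 bp into the gene, chr7:25689047-25689540, with scores of 197 and 119 at percentiles 96.2 and 93.3 of their lists. In CD24high a vehicle-only region lay 12973 bp into it (score 107). The Tgfb1 regions thus differed in place between populations. In each population their arm was that of the longer lists, vehicle in CD24neg and CD24high and G9ai in CD24low. Tgfb3 held 2 G9ai-only regions in CD24low, across a gene end (scores 85 and 51) and 349 bp inside it (scores 141 and 95), and Tgfb2 held 1 vehicle-only region in CD24neg (score 98).

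Bmp5 had G9ai-only regions in CD24neg (scores 59 and 53) and CD24low (scores 148 and 108) that overlapped within chr9:75870360-75871131. Its vehicle-only region in CD24high lay elsewhere, 8274 bp downstream of the start (score 49). Bmp3 held a vehicle-only region 335 bp inside a gene end in CD24neg (score 105), a G9ai-only region 967 bp inside it in CD24low (scores 109 and 41) and a vehicle-only region in CD24high (score 49). The CD24low score of 41 was at percentile 1.67 of its list. Bmp6 had a vehicle-only region in CD24neg (score 148) and a G9ai-only one in CD24low (scores 92 and 56). Bmp2 had vehicle-only regions in CD24neg (score 161) and CD24high (score 98), and Bmp7 in CD24high (score 54).

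Inhba, an activin subunit, held a G9ai-only region in CD24neg that began 7 bp after an annotated start (scores 48 and 106). Inhbb, another activin subunit, had 1 peak in each CD24neg G9ai library, with scores of 45 and 170, but these did not overlap and made no G9ai-only region. Bmp4, a BMP of the developing distal lung, had no listed peak.

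The 6 genes for storage and activation of ligands held 10 G9ai-only and 12 vehicle-only regions. Ltbp1, which tethers latent TGF-beta to the matrix, had 11, the most of the 50 genes. At its upstream start a G9ai-only region was present in CD24neg (scores 76 and 82) and CD24high (scores 91 and 73), and no CD24low library listed a peak there. At its internal start a region was G9ai-only in CD24low (scores 96 and 111) and vehicle-only in CD24high (score 62). The 209 capitals of that sequence were thus listed on opposite sides in these populations.

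The other 3 CD24low regions of Ltbp1 were G9ai-only, the highest-scoring at chr17:75376432-75376587 with scores of 245 and 91. The other 4 vehicle-only regions of CD24high included 1 that ended 421 bp before the gene span, beside the G9ai-only region at the upstream start. Peak numbers show that the lists are partial here: in both CD24low G9ai libraries 10 peaks were called from the first to the last of the 4 listed ones.

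Thbs1 encodes thrombospondin, an activator of latent TGF-beta. A region across its gene end, within chr2:118111870-118112012, was vehicle-only in CD24low (scores 42 and 41) and G9ai-only in CD24high (scores 102 and 109), and in CD24neg a vehicle-only region lay 494 bp outside the gene (score 119). The CD24low peaks there were among the lowest of their lists, at percentiles 2.93 and 0.999.

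Ltbp3, another latent TGF-beta binding protein, had vehicle-only regions in every population, and those of CD24neg (score 91) and CD24high (score 132) met within chr19:5743538-5743852. In CD24low its vehicle-only region (scores 57 and 50) lay 953 bp downstream of the start, and a G9ai-only region (scores 204 and 85) lay farther in. Ltbp4 had a G9ai-only region in CD24low (scores 64 and 113) and Ltbp2 in CD24high (scores 51 and 74). Bmp1, a protease of procollagens and BMP antagonists, had a vehicle-only region in CD24low (scores 61 and 78) that also lay in the window of the surfactant gene Sftpc. The antagonist genes Nog, Grem1 and Fst had no listed peak.

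Among the type I receptor genes, Acvr1, which serves BMPs, held 8 one-arm regions. In CD24low a vehicle-only region crossed its 5′ end (scores 58 and 73), in a window shared with Upp2. A region 4376 bp inside the gene was G9ai-only in CD24low (scores 80 and 45) and vehicle-only in CD24high (score 93). Another, within chr2:58532341-58532566, was vehicle-only in CD24neg (score 44, at percentile 0.772 of its list) and CD24high (score 133). The 4 CD24high regions of Acvr1 were all vehicle-only.

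Tgfbr1, the TGF-beta type I receptor, had a G9ai-only region across its 5′ end in CD24high, with scores of 116 in replicate 2 and 529, at percentile 99.8, in replicate 3. The peak of replicate 3, 865 bp wide, covered the start, while that of replicate 2 lay downstream of the start window. In CD24neg its region was vehicle-only (score 126) and lay 13680 bp from the nearest start.

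Bmpr1b, a BMP receptor, held 4 G9ai-only and no vehicle-only regions in CD24low, with scores of 47 to 67 in replicate 2 and 46 to 85 in replicate 3. These were at percentiles 2.95 to 23.9 and 9.04 to 74.4 of their lists. The gene spans 332 kb, and the G9ai lists of CD24low were longer than those of vehicle. In CD24neg it had a G9ai-only region over 1 of its annotated starts (scores 98 and 54) and 2 vehicle-only regions (scores 135 and 185). Bmpr1a, its relative, had vehicle-only regions in CD24neg (score 79) and, 211 bp upstream of an annotated start, in CD24low (scores 161 and 85). Acvr1b, an activin receptor, had a G9ai-only region in CD24low (scores 93 and 79) and 3 vehicle-only regions in CD24high (scores 217, 58 and 79). Acvr1c and Acvrl1 had no listed peak.

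Each of the 4 type II receptor genes had 1 region. Those of Bmpr2, 414 bp downstream of its start (scores 129 and 145), and Acvr2a (scores 60 and 116) were G9ai-only in CD24neg, and that of Acvr2b was G9ai-only in CD24low (scores 58 and 45). Tgfbr2, the TGF-beta type II receptor, had a vehicle-only region in CD24low (scores 111 and 72), 14151 bp downstream of its start. The arms thus differed by gene among these receptors.

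The co-receptor gene Tgfbr3 had a region within chr5:107283903-107284120 that was G9ai-only in CD24low (scores 156 and 75) and CD24high (scores 50 and 52), and vehicle-only regions elsewhere in all 3 populations. The CD24high peaks of the shared region were at percentiles 4.93 and 7.67 of their lists. Eng, a co-receptor known from endothelial cells, had a vehicle-only region in CD24neg (score 104), in the library where 3 of 5 endothelial markers held peaks. The part of such cells in it was not tested.

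The 6 genes for receptor-activated Smads and Smad4 held 10 G9ai-only and 21 vehicle-only regions. In CD24neg all 6 had a vehicle-only one, where 1.96 would be expected from length and 18.9% of all genes had one. That count rests on 1 vehicle library, whose peaks in these genes were at percentiles 0.411 to 77.0 of its list. This role is 1 of 11, and its count was not tested. Over all the pathway genes, observed over expected for CD24neg vehicle-only regions was 1.73, and 1.19 at equal list lengths. A lean to vehicle in CD24neg and CD24high was common to all gene-linked regions, of which 31.6% and 18.3% were G9ai-only there. In CD24low 3 of the 6 had a G9ai-only region (1.56 expected) and 3 a vehicle-only one (0.662 expected). Smad3, which carries the TGF-beta signal, had regions of both arms in each population. One within chr9:63721678-63721942 was vehicle-only in CD24neg (score 69) and CD24low (scores 61 and 131). CD24low also had 3 G9ai-only regions in Smad3, 1 of them 857 bp downstream of the start (scores 165 and 76). Smad2, which acts beside Smad3, had a vehicle-only region in every population, each in another place, with scores of 89 in CD24neg, 94 and 74 in CD24low and 59 in CD24high.

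Smad1, a BMP Smad, held 2 G9ai-only regions in CD24low and 4 vehicle-only regions in CD24high. These met within chr8:79372500-79372847 (scores 78 and 94 with G9ai in CD24low, 168 with vehicle in CD24high). Smad9, also a BMP Smad, had no G9ai-only region. Its start region, printed above, was vehicle-only in CD24neg (score 43) and CD24high (score 67), and so was one within chr3:54764507-54764646 (scores 70 and 130). The scores at the start were low in their lists, at percentiles 0.411 and 20.8.

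Smad5, the remaining BMP Smad, had vehicle-only regions in CD24low over the start printed above (scores 81 and 99) and in CD24neg 188 bp upstream of a later annotated start (score 101). Smad4, the common partner, had 2 vehicle-only regions in CD24neg (scores 73 and 60) and a G9ai-only region of 652 bp across a gene end in CD24low (scores 53 and 124).

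The inhibitory Smad genes held 1 G9ai-only region, in Smad6 in CD24neg (scores 146 and 100), and 7 vehicle-only ones. Of these 7, 3 lay in CD24neg and 3 in CD24high, where most gene-linked regions were vehicle-only, and 1 in CD24low. Smad7, which TGF-beta itself induces, had vehicle-only regions in all 3 populations, and that across its gene end was shared by CD24neg (score 65) and CD24high (score 93).

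Smurf1 held 9 regions and none in CD24low. In CD24neg 2 were G9ai-only, the higher-scoring 1092 bp downstream of the start (scores 185 and 166, percentiles 98.3 and 93.7), and 1 was vehicle-only. In CD24high 2 were G9ai-only and 4 vehicle-only. Smurf2 had a G9ai-only region in CD24neg (scores 66 and 120) and 2 vehicle-only regions in CD24high (scores 281 and 129).

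Ski, a corepressor of Smad complexes, had regions of both arms in all 3 populations. In CD24neg a G9ai-only region 460 bp upstream of its start scored 650 in replicate 2 and 110 in replicate 3. A region within chr4:155178283-155178702 was G9ai-only in CD24neg (scores 78 and 90) and CD24low (scores 43 and 73) and vehicle-only in CD24high (score 184). Another, within chr4:155209618-155209876, was vehicle-only in CD24neg (score 46) and G9ai-only in CD24high (scores 207 and 150). That CD24neg peak was at percentile 1.57 of its list, and the CD24low replicate 2 peak of the former region at percentile 0.962. Skil, its relative, had a G9ai-only region in CD24neg (scores 149 and 138). Tgif1 and the 4 Id genes, which span 1.16 to 4.91 kb, had no listed peak.

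**Figure D4:**
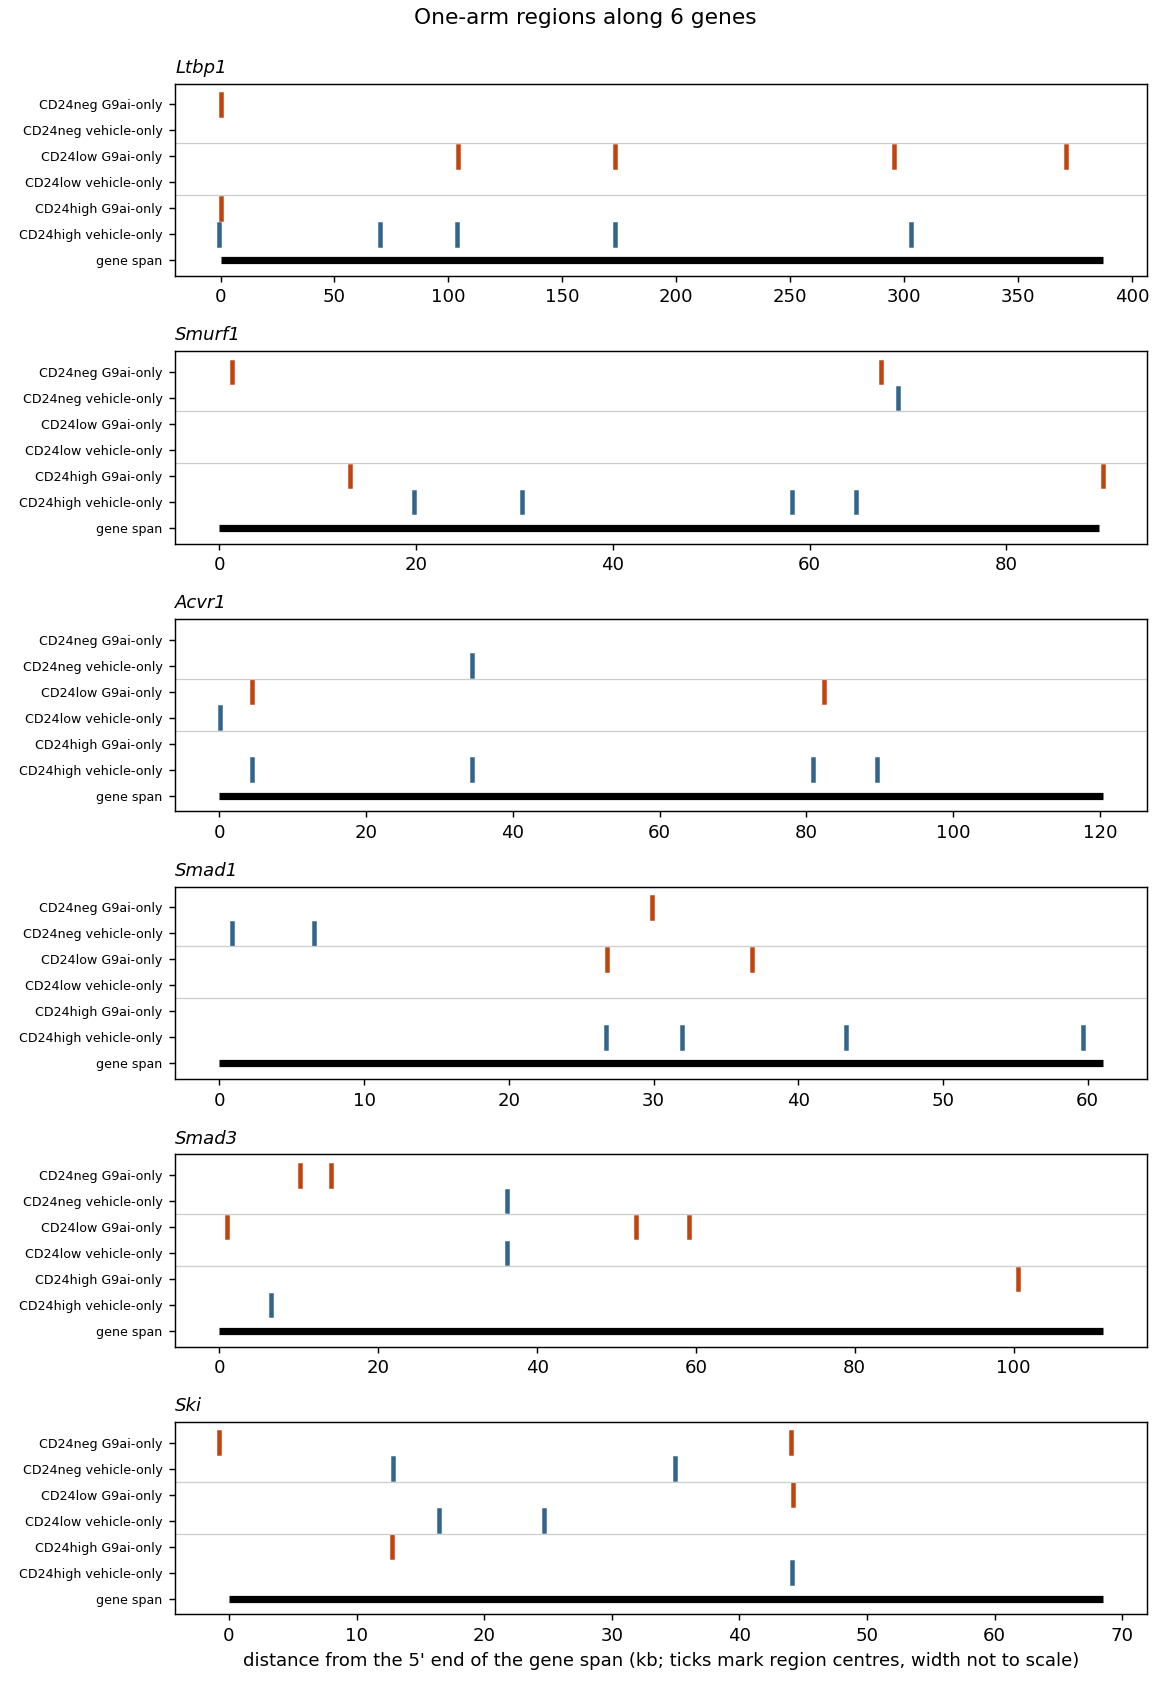
One-arm regions along the 6 genes with 8 or more of them, by distance from the 5′ end of the gene span (x axis, kb), with a row per population and arm (G9ai orange, vehicle blue, ticks at region centres, width not to scale). Ticks in 1 vertical line mark shared places, such as the internal start of Ltbp1, G9ai-only in CD24low and vehicle-only in CD24high.

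Across populations, Ltbp1, Smad3 and Ski had a G9ai-only region in all 3 (6.00% of the 50 genes, against 1.51% of all genes, with 1.24 expected from length). Ltbp3, Acvr1, Tgfbr3, Smad2, Smad3, Smad7 and Ski had a vehicle-only region in all 3 (14.0%, against 2.55% of all genes, with 2.12 expected). Regions of both directions lay in 19 of the 50 genes, against 17.1% of all genes, while 8 held G9ai-only and 11 vehicle-only regions alone. Within 1 population, both directions lay in 6 genes in CD24neg (4.69% of all genes), 5 in CD24low (2.79%) and 5 in CD24high (4.13%). These counts of both directions were not set against gene length, and the pathway genes are long.

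With the peaks of all lists merged, the 50 genes held 119 places with a one-arm region, of which 15 (12.6%) were listed in more than 1 population, against 14.6% of all gene-linked places. The direction was the same in 9 of these and opposite in 6, or 40%, against 50% of all gene-linked places. The shares for the pathway genes were near those of all genes.

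The share of regions near gene ends was compared without a test. In CD24low, 5 of 28 G9ai-only regions (17.9%, against 26.5% of gene-linked regions) and 7 of 13 vehicle-only regions (53.8%, against 36.6%) lay within 1000 bp of a gene end. Those vehicle-only regions were in 7 genes, Bmp1, Ltbp3, Thbs1, Bmpr1a, Acvr1, Smad2 and Smad5, while 3.10% of all genes held such a region, and 6.04% of all genes held a G9ai-only one, as did 4 of the 50. In CD24neg these were 4 of 16 G9ai-only regions (25.0%, against 27.8%) and 10 of 30 vehicle-only regions (33.3%, against 23.5%), and in CD24high 4 of 9 G9ai-only (44.4%, against 32.6%) and 3 of 39 vehicle-only (7.69%, against 22.3%). Genes with such a region near an end numbered 4 with G9ai-only (3.72% of all genes) and 10 with vehicle-only (6.52%) in CD24neg, and 4 with G9ai-only (3.09%) and 3 with vehicle-only (9.04%) in CD24high. The vehicle side of CD24neg and CD24high rested on 1 library each.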

How the data were processed

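The authors deposited peak lists of nucleosome-free ATAC-seq signal with a score per peak. FastQC, Bowtie2, MACS2 and the build mm10 are named per the submitters' processing notes, and their versions and settings, and how the lists were selected, are not stated there. The deposited score is each peak's own value and was used to rank peaks within a list. From these lists, 47 to 472 repeated lines per library were dropped, peaks were linked to RefSeq gene spans with 1000 bp on each side by an overlap of at least 1 bp, and peaks of a population were merged into regions. Lists of 10 libraries were used, and the other 8 samples are not analysed here. Read depth is unknown.

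The genes and lists were chosen with earlier results of these data known. Genes were named where they held regions near gene ends, 2 or more regions, or the same or opposite arms across populations, and all 50 are accounted for. Shares were compared by two-sided exact permutation over libraries, with Wilson 95% intervals; the design names 3 mice per arm but ties no library to a mouse, so p-values measure only the spread between these samples, which may be technical. Length was controlled with 20 bins. Alternatives changed the gene window, score threshold, list length, repeated lines, overlap, replicates and pairing. Peak names share a code between populations of 1 arm and replicate number, which was not taken as pairing of arms. The code was tested on simulated data. Python 3.11.15, NumPy 2.4.6, SciPy 1.17.1 and matplotlib 3.10.9 were used.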

Additional observations from a re-analysis of the deposited data

Results flagged for a closer look

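In 6 places a region of a pathway gene was listed with G9ai in 1 population and with vehicle in another, and these differences were not tested. They made up 40% of the 15 places listed in more than 1 population, against 50% over all gene-linked places. The Ltbp1 place (75178546, chromosome 17), the Acvr1 place (58562224, chromosome 2) and the Smad1 place (79372500, chromosome 8) were G9ai-only in CD24low and vehicle-only in CD24high, each over 3 libraries. The Thbs1 place (118111870, chromosome 2) was vehicle-only in CD24low and G9ai-only in CD24high, over 4 libraries. Of the Ski places on chromosome 4, that at 155178283 was G9ai-only in CD24neg and CD24low and vehicle-only in CD24high, over 5 libraries. That at 155209618 was vehicle-only in CD24neg and G9ai-only in CD24high, over 3 libraries. Some of these peaks were near the floor of their lists. The CD24neg peak at 155209618 was at percentile 1.57, the CD24low replicate 2 peak at 155178283 at 0.962, and the CD24low Thbs1 peaks at 2.93 and 0.999. The CD24low replicate 3 peak at the Acvr1 place was at percentile 7.21.

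The difference between arms in the share of listed peaks within the 50 genes had opposite signs in CD24neg and CD24low. The CD24neg difference minus the CD24low difference was 0.204 percentage points (exact permutation of arms within populations, 18 relabellings, p = 0.0556, the smallest these relabellings can give). The CD24low difference minus the CD24high difference was -0.142 points (exact p = 0.0556) and the CD24neg difference minus the CD24high difference 0.0621 points (exact p = 0.444). After Benjamini-Hochberg adjustment over these 3 exact tests the p-values were 0.0833, 0.0833 and 0.444.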

How the results depend on the processing

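Counts of one-arm regions followed the window and the list length. Within 1000 bp of gene ends they were 4 G9ai-only and 10 vehicle-only in CD24neg, 5 G9ai-only and 7 vehicle-only in CD24low, and 4 G9ai-only and 3 vehicle-only in CD24high. With the higher-scoring 50% of peaks they were 7 G9ai-only and 13 vehicle-only in CD24neg, 10 G9ai-only and 2 vehicle-only in CD24low, and 3 G9ai-only and 16 vehicle-only in CD24high. With 2552 peaks per list they were 8 G9ai-only and 7 vehicle-only in CD24neg, 6 G9ai-only and 13 vehicle-only in CD24low, and 7 G9ai-only and 8 vehicle-only in CD24high. The order of the arms thus turned in CD24neg and CD24low. Genes of like length gave an expected 2.62 genes with G9ai-only and 5.09 with vehicle-only regions in CD24low at this setting, and 3.69 and 5.05 in CD24neg. Observed over expected was 2.67 (CD24neg vehicle-only), 3.89 (CD24low vehicle-only) and 0.594 (CD24high vehicle-only) at gene ends, 1.21 (CD24low vehicle-only) with the higher-scoring peaks, and 2.29 (CD24low G9ai-only) and 1.19 (CD24neg vehicle-only) with equal lists.

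The share difference turned in CD24high with equal lists (-0.0196), 5000 bp flanks (-0.0135) and no flank (-0.00769), in CD24low with the higher-scoring peaks (0.0293), and in CD24neg at gene ends (-0.00456). Over all populations it was 0.0392 with equal lists, 0.0852 (exact p = 0.0556) with the higher-scoring peaks and 0.00210 with repeated lines kept. The cause was not tested. With a replicate block, the CD24low difference stayed -0.122 (exact p = 0.50) and the range within G9ai 0.100 (exact p = 0.167). Both p-values are the smallest these blocked designs allow, so they cannot show whether the differences weaken with pairing. Leaving out a replicate turned no difference. Lists without read counts limit what can be compared.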
